A study of Mus musculus with 4 samples.

Results

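H3K27me2, the dimethylated form of lysine 27 of histone H3, was mapped by ULI-NChIP-seq in PN5 zygotes, and the peaks described here are those assigned to Hox genes and to other families of patterning transcription factors. A peak was taken as a member when its assigned gene belonged to the Hoxa, Hoxb, Hoxc or Hoxd clusters or to the numbered Pax, Lhx, Irx, Gata, Tbx or Nkx genes, or to the family of Six3. Of 56036 peaks in 4 lists, 210 were members, and they were assigned to 41 of the 100 genes searched. The groups were Ezh2m+/p+ zygotes, from Ezh2 fl/fl eggs, and Ezh2m-/p+ zygotes, from Ezh2 fl/fl;Gdf9-Cre eggs, in which Cre driven by the oocyte gene Gdf9 deletes the floxed Ezh2 exon. The eggs of both groups were C57BL/6J and were fertilized in vitro with PWK/PhJ sperm, so that each embryo carried a paternal Ezh2 allele (p+) and strain variants assigned reads to the maternal or the paternal genome. Each genotype had 1 H3K27me2 library, made from pooled zygotes, and 1 input library.

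With 1 library per genotype there was no replicate check of any difference, and no p-value was computed. Values are counts, shares and medians, and shares carry 95% Clopper-Pearson intervals, which cover counting error only. These intervals treat peaks as independent, although peaks of 1 gene are neighbours. The lists hold no read counts, so the depth behind a single peak is unknown. The genotype of a list is taken from its label. The study's published breakdown of peak positions matches these lists only with the genotypes exchanged, in both parental genomes, while its peak numbers match them as labelled. The direction of every genotype difference therefore rests on the labels. By the study's account the Ezh2m+/p+ library was sequenced more deeply than the Ezh2m-/p+ library, and the reads left in each parental genome are not given in the sources used here. Peak lists cannot show whether the exon was deleted, and this check was not made.

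Homeobox, paired, LIM-homeodomain, Iroquois, GATA and T-box proteins are DNA-binding factors that set position and cell identity in the embryo, long after the zygote stage. Hox genes lie in 4 compact clusters and specify position along the head-to-tail axis, and many of the other genes stand in gene-poor surroundings that hold distant enhancers. Polycomb repressive complex 2, whose catalytic subunit is EZH2 or EZH1, methylates H3K27, and in embryonic stem cells the starts of such genes are classical sites of its trimethylated form.

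Sequences are shown for the member peak of largest fold in each list, where fold is the enrichment of H3K27me2 over input that the authors' peak caller computed. Folds of different lists are given side by side and are not comparable. Each line gives the 200 bases at the centre of the peak on the plus strand, read from the RefSeq copy of GRCm38.p6 (mm10), with CpG dinucleotides (the letters CG) in capitals.
Gata3, Ezh2m+/p+ maternal, chr2:9692401-9692600: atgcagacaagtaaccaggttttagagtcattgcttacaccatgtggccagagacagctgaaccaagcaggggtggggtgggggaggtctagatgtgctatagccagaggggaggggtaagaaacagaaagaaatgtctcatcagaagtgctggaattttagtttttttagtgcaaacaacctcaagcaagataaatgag
Nkx2-6, Ezh2m-/p+ maternal, chr14:69132101-69132300: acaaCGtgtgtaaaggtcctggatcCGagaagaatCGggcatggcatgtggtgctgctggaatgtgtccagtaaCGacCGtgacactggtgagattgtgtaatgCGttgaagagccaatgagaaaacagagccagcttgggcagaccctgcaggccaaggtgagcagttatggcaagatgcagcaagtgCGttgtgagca
Pax7, Ezh2m+/p+ paternal, chr4:139838701-139838900: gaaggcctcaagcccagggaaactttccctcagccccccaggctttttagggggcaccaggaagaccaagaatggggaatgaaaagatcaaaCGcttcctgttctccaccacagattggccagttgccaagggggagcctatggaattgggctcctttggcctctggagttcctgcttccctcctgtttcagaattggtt
Lhx4, Ezh2m-/p+ paternal, chr1:155763301-155763500: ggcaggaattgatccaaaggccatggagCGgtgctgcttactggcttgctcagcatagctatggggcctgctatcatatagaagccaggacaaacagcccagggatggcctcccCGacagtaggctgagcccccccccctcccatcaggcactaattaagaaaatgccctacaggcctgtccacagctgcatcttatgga
None of these 4 stretches overlaps an annotated exon. The Gata3 stretch held 0 CpG, the Pax7 stretch 1 and the Lhx4 stretch 2, beside medians of 2, 1 and 1 over the peak centres of their lists. The Nkx2-6 stretch held 7, and 3.11% of the 9606 centres of its list held as many.

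Only 4 promoter windows of member genes in the RefSeq table (250 bases before to 50 after a start, 81 windows of 67 genes) overlapped a peak in any list. They are the windows of Lhx4, Tbx20, Hoxd8 and Pax7. The table has windows for only 67 of the 100 genes searched, and not for every start of these. Starts of Pax1, Pax3, Tbx1, Tbx15 and Irx6 that a peak covered, given below, are not among its windows. The 250 bases before the start are shown for the first 3 of them, on the strand of the gene and again with CpG in capitals. The Pax7 window overlaps an exon of an annotated transcript and is not printed.
Lhx4, Ezh2m+/p+ paternal, minus strand, chr1:155742028-155742277: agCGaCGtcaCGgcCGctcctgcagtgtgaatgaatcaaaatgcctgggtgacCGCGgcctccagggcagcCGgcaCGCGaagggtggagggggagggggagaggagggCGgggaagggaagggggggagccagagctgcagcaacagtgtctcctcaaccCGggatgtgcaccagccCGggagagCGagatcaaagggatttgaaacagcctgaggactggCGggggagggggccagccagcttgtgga
Tbx20, Ezh2m-/p+ maternal, minus strand, chr9:24774304-24774553: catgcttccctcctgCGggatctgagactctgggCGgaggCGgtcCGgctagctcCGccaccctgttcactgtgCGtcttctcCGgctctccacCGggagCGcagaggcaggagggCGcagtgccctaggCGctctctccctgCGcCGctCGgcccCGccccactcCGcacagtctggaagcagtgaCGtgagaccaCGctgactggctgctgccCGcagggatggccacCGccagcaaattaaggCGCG
Hoxd8, Ezh2m-/p+ paternal, plus strand, chr2:74704365-74704614: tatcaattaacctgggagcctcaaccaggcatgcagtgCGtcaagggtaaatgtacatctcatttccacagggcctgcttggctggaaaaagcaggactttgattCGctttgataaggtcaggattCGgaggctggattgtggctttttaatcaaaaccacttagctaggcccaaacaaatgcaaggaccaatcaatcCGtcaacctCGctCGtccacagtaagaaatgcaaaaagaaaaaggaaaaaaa
The Lhx4 stretch held 14 CpG, the Tbx20 stretch 22 and the Hoxd8 stretch 6. Over all 32851 windows of the table the median was 6, and 29.4%, 14.8% and 50.4% of them held as many as these genes did. A member window overlapped a peak in 0 of 81 cases in the Ezh2m+/p+ maternal list, 1 in the Ezh2m-/p+ maternal list, 1 in the Ezh2m+/p+ paternal list and 2 in the Ezh2m-/p+ paternal list. The shares over the 32619 windows on the chromosomes used were 0.797%, 1.31%, 3.29% and 4.67% in the same order, so 81 windows would hold few overlaps at any of these rates. The member counts also leave out genes and starts without a window, and all starts covered by a member peak are counted further below.

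Members were a small share of each list. The Ezh2m+/p+ maternal list held 24 member peaks (0.418% of 5744, interval 0.268 to 0.621%) and the Ezh2m-/p+ maternal list held 53 (0.552% of 9606, interval 0.414 to 0.721%). The Ezh2m+/p+ paternal list held 60 (0.336% of 17863, interval 0.256 to 0.432%) and the Ezh2m-/p+ paternal list held 73 (0.320% of 22823, interval 0.251 to 0.402%). The intervals of the 2 genotypes overlapped in both parental genomes, so the higher number of members in Ezh2m-/p+ zygotes went with a longer list. Between the parental genomes the intervals overlapped in Ezh2m+/p+ zygotes and did not in Ezh2m-/p+ zygotes, where the maternal share was the higher.

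Counted as genes over all 8 families together, the shares with a peak were near the background of protein-coding genes in most lists. In the Ezh2m+/p+ maternal list 15 of the 100 patterning genes had a peak (interval 8.65 to 23.5%), where 14.6% of all 21631 protein-coding genes had one. In the Ezh2m-/p+ maternal list 28 did (interval 19.5 to 37.9%), against 21.1% of all protein-coding genes. In the Ezh2m+/p+ paternal list 13 did (interval 7.11 to 21.2%), against 20.3%, and in the Ezh2m-/p+ paternal list 15 did (interval 8.65 to 23.5%), against 23.8%. Both paternal shares were below the background, which lay inside the interval in every list but the Ezh2m-/p+ paternal one, where it was just above the upper limit. The pooled shares mix unlike families. Of the 39 Hox genes 0, 4, 0 and 1 had a peak in the same order. The share of the other families together was therefore higher than the pooled one in each list. No peak was assigned to 59 of the genes in any list, and 34 of these were Hox genes. Peaks were in 1 list for 19 genes, in 2 lists for 17, in 3 lists for Lhx4 and Tbx5, and in all 4 for Irx1, Pax3 and Tbx15. These counts follow the assignment. Genes with any peak in their body or 5 kb flanks were fewer, 5 and 20 maternal and 6 and 12 paternal in Ezh2m+/p+ and Ezh2m-/p+ zygotes. The same count over all protein-coding genes was not made. A peak assigned to another gene lay in the body or the 5 kb flanks of 5 genes without one of their own in the Ezh2m-/p+ maternal list, Pax2 and Pax5 among them, of 3 in the Ezh2m-/p+ paternal list, Pax6 among them, and of 0 in either Ezh2m+/p+ list.

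**Figure D1:**
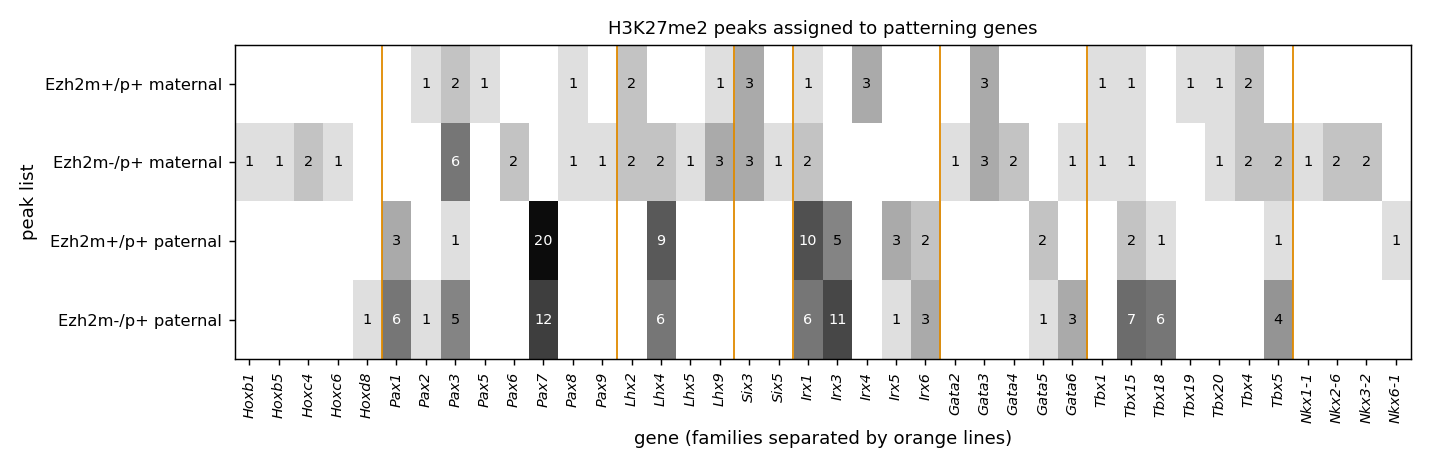
Number of H3K27me2 peaks assigned to 40 of the 41 patterning genes that had one (columns, by family) in each of the 4 peak lists (rows), with darker cells for more peaks and blank cells for none. The 20 and 12 paternal peaks of Pax7 are the highest counts, both maternal rows are blank there, and the Hox columns are filled only in the Ezh2m-/p+ rows.

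The paternal members were concentrated at few genes. Pax7, Irx1 and Lhx4 held 39 of the 60 Ezh2m+/p+ paternal peaks (65.0%), and Pax7, Irx3 and Tbx15 held 30 of the 73 Ezh2m-/p+ paternal peaks (41.1%). The maternal members were spread more widely, with at most 3 peaks per gene for Ezh2m+/p+ and at most 6 for Ezh2m-/p+ zygotes. Accordingly the 60 paternal peaks came from fewer genes than the 24 maternal peaks of the same zygotes. Windows of 1 Mb with at least 20 paternal peaks in both genotypes were picked by these counts, so a high paternal share in them is built in. They held 50% of the Ezh2m+/p+ paternal members against 52.9% of that list. Of the Ezh2m-/p+ paternal members they held 31.5% (interval 21.1 to 43.4%) against 45.6%. The members' shares in these windows thus did not exceed those of their lists.

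The 39 Hox genes, which set segment identity along the body axis, had no peak in either Ezh2m+/p+ list (0 of 39 genes, interval up to 9.03%). In Ezh2m-/p+ zygotes 4 of them had a maternal peak (10.3%, interval 2.87 to 24.2%) and 1 had a paternal peak (2.56%, interval 0.0649 to 13.5%). All these shares were below the 14.6 to 23.8% of protein-coding genes with a peak. The interval of the Ezh2m-/p+ maternal share held its own list's 21.1%, and the other intervals ended below the shares of their lists. Genes of a cluster share their surroundings and are not independent, so these intervals are too narrow. The 4 clusters together span 492.1 kb. At the average density of each list such a length would hold 1.07, 1.79, 3.34 and 4.26 peaks for the Ezh2m+/p+ maternal, Ezh2m-/p+ maternal, Ezh2m+/p+ paternal and Ezh2m-/p+ paternal lists. The clusters held 0, 3, 0 and 1. With numbers this small the absence of Hox peaks in Ezh2m+/p+ zygotes cannot be told from a sparse list, most of all for the maternal genome.

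The Hoxb5 peak lay at chromosome 11, 96301201 to 96302999, 513 bases before the start, with a fold of 22.2. Hoxb1, a hindbrain gene at the end of the same cluster, had a peak at 96382201 to 96383399, 15.9 kb beyond its start, with a fold of 21.4. On chromosome 15 the Hoxc6 peak (102998801 to 103001399, fold 32.9) began 544 bases beyond the start. Both peaks of Hoxc4, the last gene of that cluster, lay beyond its start by 9.01 and 21.6 kb, with folds of 26.0 and 28.3. These 5 peaks were the maternal ones, and their folds lay close to the list median of 23.7. The only paternal Hox peak covered the start of Hoxd8 (chromosome 2, 74704001 to 74704999), whose upstream sequence is printed above. It had a fold of 94.6 and measured 999 bp, the shortest length in the lists. The folds of its list fall into a lower and an upper group with medians of 10.0 and 78.8. The upper group, to which this peak belongs, holds 36.5% of the list. None of the 6 Hox peaks overlapped a peak of the other genotype or of the other parental genome. Of all Ezh2m-/p+ peaks, 5.78% of the maternal and 45.7% of the paternal ones overlapped the other genotype, and 0.416% and 0.180% the other parental genome, so such overlaps were few in any case but the paternal one between genotypes. The Hoxa cluster had no peak in any list.

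The 9 Pax genes, with paired domains, include the patterning gene with most peaks in both paternal lists. Pax7, a factor of neural crest and muscle stem cells on the minus strand of chromosome 4, had 20 paternal peaks in Ezh2m+/p+ zygotes, 12 in Ezh2m-/p+ zygotes and no maternal peak in either. They spread over 137.4 kb (139745001 to 139882399), of which 62.6% was covered for Ezh2m+/p+ and 78.3% for Ezh2m-/p+ zygotes. This stretch runs from the first to the last of the peaks, so a high cover of it is built in. Within the gene body, whose limits do not depend on the peaks, the covered share was 63.8% and 78.3%. Over the whole genome the same lists covered 1.62% and 2.54%, but Pax7 is named here for its number of peaks.

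The Ezh2m-/p+ peaks of Pax7 were fewer and longer. The one at 139789001 to 139820199 measured 31199 bp, the longest member peak of all lists, and overlapped 5 Ezh2m+/p+ peaks. A further Ezh2m-/p+ peak of 20399 bp (139826601 to 139846999) covered the start, with a fold of 7.63. In Ezh2m+/p+ zygotes the start was not covered: the nearest peak before it lay 2.27 kb away, and the first peak within the gene lay 11.01 kb beyond a second, inner start. The peak before it (139835801 to 139841799) had a fold of 313.0, the largest of any Ezh2m+/p+ paternal member, and the Ezh2m-/p+ peak that contains it had a fold of 7.63. These 2 values describe stretches of unequal size, 5999 and 20399 bp.

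Pax3, a relative of Pax7 with roles in neural crest and muscle precursors, had peaks in all 4 lists, 2 and 6 maternal and 1 and 5 paternal in Ezh2m+/p+ and Ezh2m-/p+ zygotes. The paternal peak 4.27 kb before the start (chromosome 1, 78201401 to 78204399) had identical limits in both genotypes, with folds of 22.6 for Ezh2m+/p+ and 11.2 for Ezh2m-/p+ zygotes. An Ezh2m-/p+ maternal peak covered the start itself (78196401 to 78197599, fold 6.88) and lay 3.80 kb from the paternal one. The other maternal peaks of Pax3 were 61.8 to 298.6 kb beyond the start. The maternal Ezh2m+/p+ peak with a fold of 52.3 was 260.0 kb away, and no peak of the other genotype overlapped it.

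Pax1, a gene of the forming vertebral column, had only paternal peaks, 3 for Ezh2m+/p+ and 6 for Ezh2m-/p+ zygotes. The pair 22.1 and 15.5 kb before the start in Ezh2m+/p+ zygotes (folds 48.1 and 108.3) was overlapped by Ezh2m-/p+ peaks with folds of 11.8 and 15.8. The Ezh2m+/p+ peak over the Pax1 start (chromosome 2, 147361801 to 147362799, fold 36.1) was not. Pax6, the eye-field gene, was assigned 2 peaks, both Ezh2m-/p+ maternal, and an Ezh2m-/p+ paternal peak inside it (105670201 to 105671199) was assigned to the antisense gene Pax6os1. The first maternal peak lay 72 bases beyond an internal start of the gene (fold 22.9), and the second lay in an intron of the neighbouring gene Elp4 (fold 30.6), 50.3 kb from the assigned start.

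Of the 7 LIM-homeodomain genes searched, Lhx4, a gene of pituitary and motor neuron development, resembled Pax7. It had 9 Ezh2m+/p+ and 6 Ezh2m-/p+ paternal peaks across 64.2 kb of chromosome 1 (155699801 to 155763999), with 60.1% and 57.9% of that stretch covered. The stretch is again bounded by the peaks themselves. Of the gene body 65.9% and 64.7% was covered. The longest Ezh2m+/p+ peak of any member, 12399 bp with a fold of 17.6, lay in this gene. In Ezh2m-/p+ zygotes a peak of 28199 bp (fold 11.9) spanned it and 3 of its neighbours. Lhx4 has more than 1 start, and the peak assigned to a start differed with it. The Ezh2m+/p+ peak at 155734401 to 155742999 (fold 5.43) covered the inner start whose promoter is printed above, and the Ezh2m-/p+ peak there ended at 155738399 and did not reach it. At the outer start the Ezh2m-/p+ peak (155750201 to 155751799, fold 11.8) covered the start and the Ezh2m+/p+ peak (155750201 to 155751599, fold 48.1) stopped 85 bases short of it.

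A short peak 11.1 kb before the outer start was present in both genotypes, with folds of 84.3 for Ezh2m+/p+ and 197.0 for Ezh2m-/p+ zygotes. It was the Ezh2m-/p+ paternal member of largest fold, and its centre is printed above. The maternal genome had no peak over Lhx4, but 2 Ezh2m-/p+ maternal peaks assigned to it lay in introns of the neighbouring gene Acbd6, 67.6 and 76.8 kb beyond the start (folds 28.3 and 25.2). Lhx9, a gene of gonad and limb development, was maternal only. Its peak 67.8 kb beyond the start (chromosome 1, 138772001 to 138774599, fold 44.2) lay wholly within an Ezh2m-/p+ peak (138771001 to 138775399, fold 47.4). Lhx2 held another of the 4 overlapping maternal pairs, with folds of 29.5 and 26.8.

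**Figure D2:**
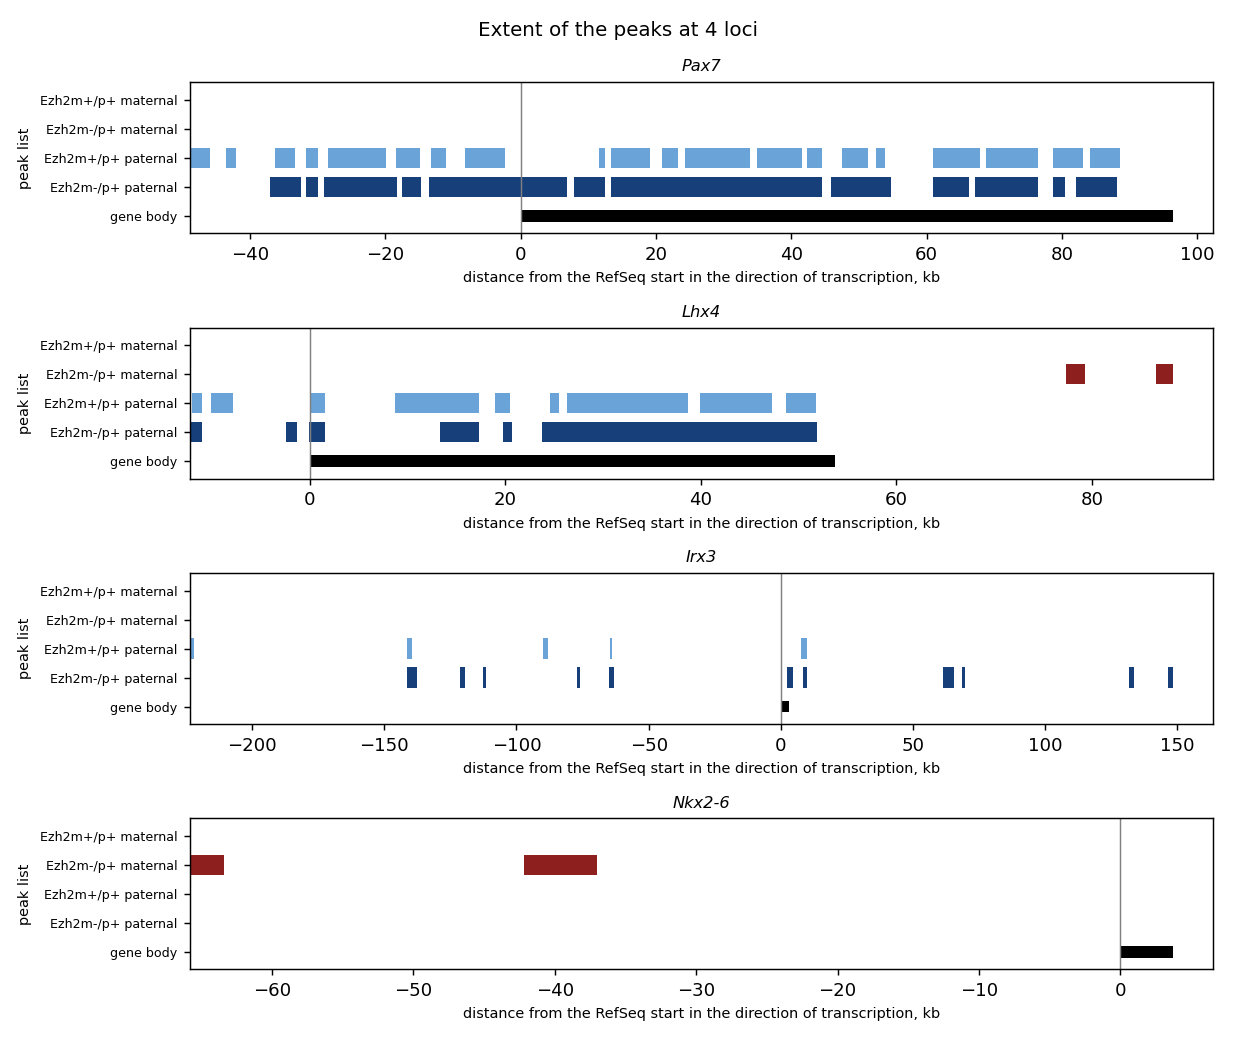
Peaks assigned to Pax7, Lhx4, Irx3 and Nkx2-6 in the 4 lists, drawn to scale along the distance in kb from the outermost RefSeq start, with the gene body in black. Paternal peaks fill most of Pax7 and Lhx4 in both genotypes, Irx3 has 5 and 11 separate paternal peaks, and the 2 peaks of Nkx2-6 belong to the Ezh2m-/p+ maternal list alone.

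The 6 Iroquois genes, homeodomain factors of heart, neural tube and limb, stand in 2 groups of 3. The 20 Ezh2m+/p+ and 21 Ezh2m-/p+ paternal Irx peaks outnumbered the 4 and 2 maternal ones, but the paternal lists were also longer, with 17863 and 22823 peaks against 5744 and 9606. By gene, 4 of the 6 had a paternal peak in each genotype (interval 22.3 to 95.7%), and 2 had a maternal peak in Ezh2m+/p+ (interval 4.33 to 77.7%) and 1 in Ezh2m-/p+ zygotes (interval 0.421 to 64.1%). Of all protein-coding genes 20.3% and 23.8% had a paternal and 14.6% and 21.1% a maternal peak. The intervals held these shares except in the Ezh2m+/p+ paternal list. In the group on chromosome 8 no maternal peak of either genotype lay between Irx3 and Irx6, a stretch of 882.4 kb that would hold 1.92 and 3.22 of them at the average density of the Ezh2m+/p+ and Ezh2m-/p+ maternal lists. Paternal peaks there numbered 17 for Ezh2m+/p+ and 25 for Ezh2m-/p+ zygotes, including those assigned to other genes, and covered 3.33% and 5.99% of it, against 1.62% and 2.54% of the genome.

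Irx3 had 5 Ezh2m+/p+ paternal peaks with folds between 36.1 and 72.2, none nearer to the start than 7.92 kb. It had 11 Ezh2m-/p+ paternal peaks with folds between 5.91 and 118.2. The highest of these lay 2.52 kb beyond the start, and another (fold 5.91) lay in the last intron of the gene Fto, 146.7 kb beyond the start. Of the 5 Ezh2m+/p+ peaks, 3 were overlapped in Ezh2m-/p+ zygotes, with folds of 72.2 and 94.6, 60.2 and 9.85, and 36.1 and 5.91 in the respective genotypes. At Irx6, an Ezh2m-/p+ paternal peak covered the start (chromosome 8, 92673601 to 92674999, fold 15.8), and the nearest Ezh2m+/p+ peak assigned to this gene was 75.2 kb from the start.

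The other group, on chromosome 13, did not share the higher paternal cover of the chromosome 8 group. From Irx1 to Irx4 (1311.4 kb) paternal peaks covered 1.49% for Ezh2m+/p+ and 1.30% for Ezh2m-/p+ zygotes, against 1.62% and 2.54% of the genome. Maternal peaks covered 0.869% and 1.19% of it, against 0.688% and 0.913%. In this group Irx1 had peaks in all 4 lists, most of them far before its start. The Ezh2m+/p+ paternal list held 10 peaks between 111.3 and 315.2 kb from the start, and the Ezh2m-/p+ paternal list 6 between 134.9 and 324.5 kb. A run of 3 Ezh2m+/p+ peaks (folds 5.27, 48.1 and 9.03) coincided with a single Ezh2m-/p+ peak of 9599 bp (fold 12.1). The Ezh2m+/p+ maternal peak, 266.7 kb before the start with a fold of 33.5, lay 7.40 kb from the nearest paternal peak. Irx4, a gene of the heart ventricle, had 3 Ezh2m+/p+ maternal peaks with folds of 53.6, 5.86 and 7.04 and none in the other lists.

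Among the 13 T-box genes, Tbx15, which shapes skeleton and skin, had peaks in all 4 lists. Its Ezh2m+/p+ maternal peak lay 2.51 kb before one of its starts with a fold of 45.6, and the Ezh2m-/p+ maternal peak covered another (chromosome 3, 99240201 to 99242599, fold 26.0). An Ezh2m-/p+ paternal peak (99237001 to 99239999, fold 110.3) ended 0.202 kb before that maternal peak, the smallest gap between a maternal member and a paternal peak. The 2 Ezh2m+/p+ paternal peaks of Tbx15, 183.9 and 279.7 kb beyond the start (folds 36.1 and 60.2), were overlapped by Ezh2m-/p+ peaks with folds of 27.6 and 7.88.

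Tbx1, a gene of the pharyngeal arches, and Tbx20, a gene of the heart, each had 1 maternal peak in each genotype at different places. In Ezh2m-/p+ zygotes these peaks covered the starts, both with a fold of 31.4. In Ezh2m+/p+ zygotes they lay 14.4 kb beyond the Tbx1 start (fold 5.53) and 57.9 kb before the Tbx20 start (fold 29.5). Tbx5, a gene of heart and forelimb, had 1 paternal peak in Ezh2m+/p+ zygotes, with 4 paternal and 2 maternal peaks in Ezh2m-/p+ zygotes. The Ezh2m+/p+ paternal peak, 16.0 kb beyond an internal start of the gene with a fold of 5.27, was overlapped by an Ezh2m-/p+ peak with a fold of 5.91.

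Of the 6 Gata genes, which encode zinc-finger factors, Gata3 had the Ezh2m+/p+ maternal member of largest fold. This peak (chromosome 2, 9690601 to 9694399, fold 59.0) lay 179.3 kb beyond the start and shared 1599 bp with an Ezh2m-/p+ maternal peak of fold 24.5. A second pair, 37.9 kb beyond the start, shared 599 bp, with folds of 36.2 for Ezh2m+/p+ and 5.35 for Ezh2m-/p+ zygotes. Each maternal list gave Gata3 3 peaks, and neither paternal list gave it any. The family of Six3, homeodomain factors of head and sense organs, likewise had maternal peaks only, and the interval of 0 of 6 genes (up to 45.9%) held the 20.3% and 23.8% of protein-coding genes with a paternal peak. Six3, a forebrain gene, had 3 maternal peaks in each genotype, and none of them overlapped, where 9.47% of all Ezh2m+/p+ maternal peaks did. The longest Ezh2m+/p+ maternal member, 6599 bp with a fold of 5.92, was assigned to Six3 although it lay in an intron of Camkmt, 165.2 kb before the Six3 start.

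The 14 Nkx genes had 10 maternal peaks in Ezh2m-/p+ zygotes and none in Ezh2m+/p+ zygotes, whose list was the shorter. By gene this was 4 of 14 (28.6%, interval 8.39 to 58.1%, against 21.1% of protein-coding genes) and 0 of 14 (interval up to 23.2%, against 14.6%), so both intervals held the background. Nkx2-6, a gene of the pharyngeal arches, had 2 of them, both distal intergenic and both before its start on chromosome 14. The one 37.0 kb before the start (69129601 to 69134799) had the largest fold of any Ezh2m-/p+ maternal member, 78.0, and its centre is printed above. It was also the longest, at 5199 bp. The other lay 63.4 kb before the start (69106001 to 69108399) with a fold of 26.0. The paternal lists held a single Nkx peak, assigned to Nkx6-1 in Ezh2m+/p+ zygotes with a fold of 36.1.

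Most member peaks lay far from starts in both parental genomes and both genotypes. Distal intergenic peaks made up 19 of 24 Ezh2m+/p+ maternal members (79.2%, interval 57.8 to 92.9%, against 33.9% of all peaks of the list). They made up 30 of 53 in the Ezh2m-/p+ maternal list (56.6%, interval 42.3 to 70.2%, against 35.8%). In the paternal lists they were 35 of 60 in Ezh2m+/p+ (58.3%, interval 44.9 to 70.9%, against 40.2%) and 39 of 73 in Ezh2m-/p+ zygotes (53.4%, interval 41.4 to 65.2%, against 40.7%). Each list's own share thus lay below the interval of its members.

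Distances are to the start of the transcript that the annotation assigned, which need not be the outermost of a gene. The median distance was 50.5 kb for Ezh2m+/p+ maternal members against 21.0 kb for the list, and 29.8 kb against 20.1 kb in the Ezh2m-/p+ maternal list. It was 43.97 kb against 23.7 kb in the Ezh2m+/p+ paternal and 48.9 kb against 25.7 kb in the Ezh2m-/p+ paternal list. Distances over 100 kb were found for 5 of 24, 11 of 53, 17 of 60 and 26 of 73 members in the same order. These were 20.8%, 20.8%, 28.3% and 35.6% of members, against 15.7%, 16.0%, 20.1% and 22.5% of the lists. At such distances the assignment names the nearest start and does not show that the peak belongs to that gene.

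Within 3 kb of a start lay 2 of 24 Ezh2m+/p+ maternal members (8.33%, interval 1.03 to 26.997%) and 8 of 53 Ezh2m-/p+ maternal members (15.1%, interval 6.75 to 27.6%). The values were 4 of 60 Ezh2m+/p+ paternal members (6.67%, interval 1.85 to 16.2%) and 9 of 73 Ezh2m-/p+ paternal members (12.3%, interval 5.80 to 22.1%). The shares of the whole lists were 15.8%, 16.5%, 17.3% and 16.9%. The members' intervals held these shares except in the Ezh2m+/p+ paternal list, and the intervals of the 2 genotypes overlapped in each parental genome. A start was covered by 0, 4, 2 and 4 members in the Ezh2m+/p+ maternal, Ezh2m-/p+ maternal, Ezh2m+/p+ paternal and Ezh2m-/p+ paternal lists. These were 0%, 7.55%, 3.33% and 5.48% of members, near the 6.27%, 6.04%, 6.57% and 7.23% of the lists. The maternal starts were those of Pax3, Tbx1, Tbx15 and Tbx20, all in Ezh2m-/p+ zygotes. The paternal ones were Pax1 and Lhx4 for Ezh2m+/p+ and Hoxd8, Irx6, Lhx4 and Pax7 for Ezh2m-/p+ zygotes.

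**Figure D3:**
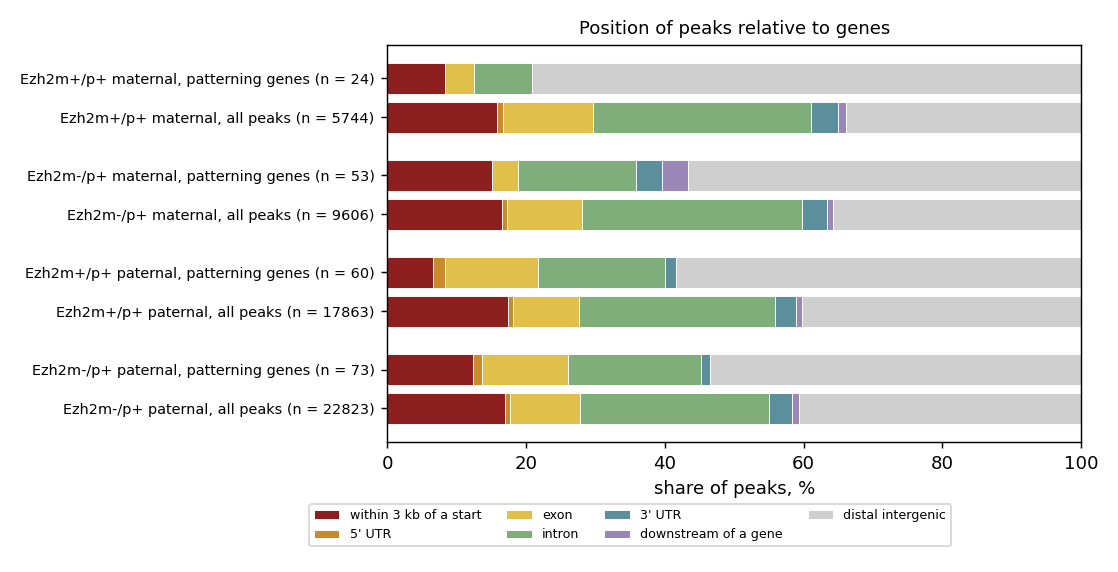
Share of peaks (%) in each position category for patterning-gene peaks and for all peaks of the 4 lists. The grey distal intergenic part is wider for the patterning genes in all 4 lists, 79.2, 56.6, 58.3 and 53.4% from top to bottom against 33.9, 35.8, 40.2 and 40.7%.

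Of the 41 patterning genes with a peak, most had peaks in only 1 parental genome. Across both genotypes 32 genes had a maternal and 16 a paternal peak, and 7 had both (Gata6, Irx1, Lhx4, Pax2, Pax3, Tbx15 and Tbx5). In Ezh2m+/p+ zygotes 3 genes were shared, which is 20% of the 15 maternal and 23.1% of the 13 paternal genes, beside 27.2% and 19.6% for all protein-coding genes with a peak. In Ezh2m-/p+ zygotes 6 were shared, 21.4% of the 28 maternal and 40% of the 15 paternal genes, beside 28.9% and 25.6%. The intervals of the members' shares (4.33 to 48.1% and 5.04 to 53.8% in Ezh2m+/p+, 8.30 to 41.0% and 16.3 to 67.7% in Ezh2m-/p+) all held the shares of the protein-coding genes.

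No maternal member overlapped a paternal peak of the same zygotes, in either genotype. The count was 0 of 24 in Ezh2m+/p+ (interval up to 14.2%) and 0 of 53 in Ezh2m-/p+ zygotes (interval up to 6.72%). Over all maternal peaks the overlap was also rare, at 0.418% and 0.416%. The median distance from a maternal member to the nearest paternal peak was 1227.6 kb in Ezh2m+/p+ zygotes, against 268.4 kb for all maternal peaks, and 274.8 kb against 250.4 kb in Ezh2m-/p+ zygotes.

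Agreement between the genotypes differed by parental genome. Of the maternal members, 4 of the 24 Ezh2m+/p+ peaks overlapped an Ezh2m-/p+ peak (16.7%, interval 4.74 to 37.4%, against 9.47% of the list). These were the 2 peaks at Gata3 and 1 each at Lhx2 and Lhx9. Of the paternal members, 43 of the 60 Ezh2m+/p+ peaks did (71.7%, interval 58.6 to 82.5%, against 66.1% of the list). Pax7 and Lhx4 supplied much of this, and without them the paternal share was 54.8%. The shares depend on how overlap is counted. Under a reciprocal overlap of 50% they were 4.17% in the maternal and 23.3% in the paternal genome. As a share of the Ezh2m-/p+ members the paternal overlap was 43.8%, against 45.7% of that list. At 1 bp of overlap the intervals of 16.7% and 71.7% held the list's own value, so the members followed their lists.

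By gene, 11 of the 15 genes with an Ezh2m+/p+ maternal peak also had one in the Ezh2m-/p+ maternal list (73.3%, interval 44.9 to 92.2%, against 57.8% of protein-coding genes), although the peaks themselves seldom overlapped. The 4 without an assigned one were Irx4, Pax2, Pax5 and Tbx19, of which Pax2 and Pax5 had peaks assigned to other genes in their bodies or flanks. In the other direction these 11 were 39.3% of the 28 Ezh2m-/p+ maternal genes, against 40.1% of protein-coding genes. For the paternal genome 12 of 13 genes were shared (92.3%, interval 64.0 to 99.8%, against 86.8%), which was 80% of the 15 Ezh2m-/p+ genes, against 74.1%. Nkx6-1 was found only in Ezh2m+/p+, and Gata6, Hoxd8 and Pax2 only in Ezh2m-/p+ zygotes.

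Folds were not continuous within a list. In the Ezh2m+/p+ maternal list the 24 members fell into 11 folds from 5.03 to 7.87 and 13 folds from 29.5 to 59.0, with none between. The 13 upper folds were whole multiples of 1.34 to within 0.01 of a step, as were all 2119 upper folds of the list. In the Ezh2m-/p+ maternal list all 43 members with folds above 19.3 were multiples of 0.765. What a step stands for is not given in the sources used here, and differences of a few steps were not read as an order. The paternal folds repeated even more, with 9 of the 60 Ezh2m+/p+ members at exactly 36.1 and 8 of the 73 Ezh2m-/p+ members at exactly 63.0.

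The members' medians reflect this split. The median fold was 29.5 for Ezh2m+/p+ maternal members (interval 6.37 to 37.5) against 7.37 for the list, and among members longer than 2000 bp it was 7.08. Upper folds made up 54.2% of these members (interval 32.8 to 74.4%) against 36.9% of the list. The median was 25.2 against 23.7 in the Ezh2m-/p+ maternal list, 36.1 against 36.1 in the Ezh2m+/p+ paternal list and 11.8 against 15.8 in the Ezh2m-/p+ paternal list.

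**Figure D4:**
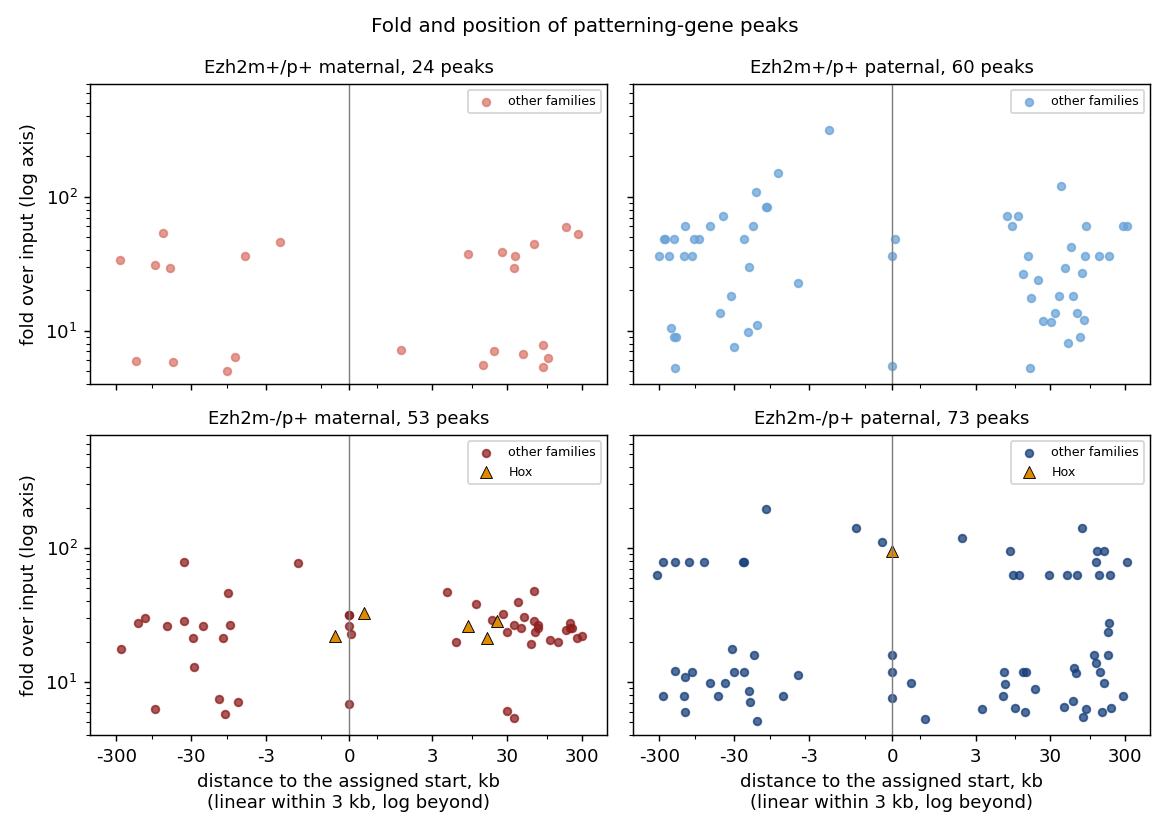
Fold over input (log axis) of each patterning-gene peak against its distance to the assigned start in kb (negative before the start, linear within 3 kb and logarithmic beyond) in the 4 lists, with Hox peaks as orange triangles. The 24 Ezh2m+/p+ maternal points form 2 bands with none between folds of 7.87 and 29.5, and the paternal point of largest fold (313.0) stands 2.27 kb before the Pax7 start.

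Lengths of members were close to those of their lists. Medians were 2599 bp against 2999 bp in the Ezh2m+/p+ maternal, 2199 against 2199 bp in the Ezh2m-/p+ maternal, 2199 against 1799 bp in the Ezh2m+/p+ paternal and 1799 against 1999 bp in the Ezh2m-/p+ paternal list. Together the members covered 71.4, 123.7, 183.7 and 258.9 kb in that order.

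In base composition the maternal members matched their lists and the paternal members were richer in GC. The median GC content was 46.6% against 45.5% in the Ezh2m+/p+ maternal list and 46.3% against 45.6% in the Ezh2m-/p+ maternal list. It was 49.6% against 44.7% in the Ezh2m+/p+ paternal and 47.5% against 43.95% in the Ezh2m-/p+ paternal list. Without Pax7 and Lhx4 the paternal medians were 46.2% and 45.7%, nearer to those of the lists.

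CpG was depleted in most members, as in the lists. The median ratio of observed to expected CpG was 0.181, 0.177, 0.196 and 0.206 in the Ezh2m+/p+ maternal, Ezh2m-/p+ maternal, Ezh2m+/p+ paternal and Ezh2m-/p+ paternal members, against 0.179, 0.179, 0.176 and 0.172 in the lists. A ratio of at least 0.6, a usual bound for a CpG island, was found in 0 of 24, 4 of 53, 1 of 60 and 4 of 73 members. In the Ezh2m-/p+ lists this was 7.55% of maternal members (interval 2.09 to 18.2%, against 0.812% of the list) and 5.48% of paternal members (interval 1.51 to 13.4%, against 0.951%). Of these 9 peaks, 5 were at or near starts, those of Pax3 (0.631), Pax6 (0.743) and Tbx1 (0.619) in the maternal genome and of Hoxd8 (0.745) and Irx6 (0.608) in the paternal genome. The highest ratio, 0.907, belonged to the Ezh2m+/p+ paternal peak 11.01 kb beyond the inner start of Pax7.

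**Figure D5:**
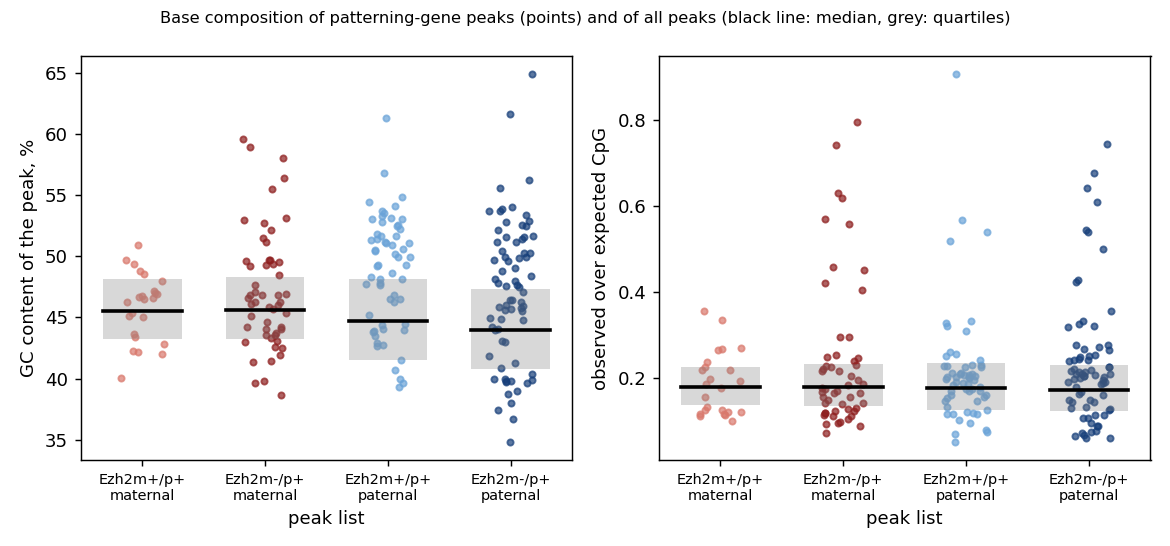
GC content (%) and ratio of observed to expected CpG of each patterning-gene peak (points) in the 4 lists, with the median (black line) and quartiles (grey) of all peaks of the list. Most points lie near the grey bands, the paternal members reach higher GC, and single Ezh2m-/p+ and paternal points rise above a CpG ratio of 0.6.

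Genes that act with the Hox proteins or belong to other homeobox families were counted for comparison. Of 9 Hox cofactor genes (Meis, Pbx and Pknox), 4 (44.4%, interval 13.7 to 78.8%) and 3 (33.3%, interval 7.49 to 70.1%) had a maternal peak in Ezh2m+/p+ and Ezh2m-/p+ zygotes, and 5 (55.6%, interval 21.2 to 86.3%) had a paternal peak in each. The shares of protein-coding genes were 14.6%, 21.1%, 20.3% and 23.8% in the Ezh2m+/p+ maternal, Ezh2m-/p+ maternal, Ezh2m+/p+ paternal and Ezh2m-/p+ paternal lists. Of these, Meis1 had peaks in all 4 lists, with 1 and 3 maternal and 5 and 8 paternal peaks. None of the 3 Cdx genes, which regulate Hox genes, and neither Evx gene, which adjoin Hox clusters, had a peak in any list. Of 25 other homeobox patterning genes, 7 (28.0%) and 10 (40%) had a maternal and 9 (36.0%) and 13 (52.0%) a paternal peak. Their intervals (12.1 to 49.4%, 21.1 to 61.3%, 17.97 to 57.5% and 31.3 to 72.2%) held the share of protein-coding genes in the Ezh2m+/p+ lists and began above it in the Ezh2m-/p+ lists, only just so in the maternal one. Otx2, a head-patterning gene, held 25 of their 52 Ezh2m+/p+ and 26 of their 60 Ezh2m-/p+ paternal peaks and had no maternal peak.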

How the data were processed

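H3K27me2 ULI-NChIP-seq was analysed in Ezh2m+/p+ and Ezh2m-/p+ zygotes, with 1 library and 1 input each. The authors trimmed reads (Trimmomatic 0.38, per the submitters' processing notes), aligned them to mm10 with Bowtie2, filtered them with SAMtools and Picard, split them by parental genome with SNPsplit, called peaks with SICER against the input on a grid of 200 bp, and annotated them with ChIPseeker. The deposited fold is the ratio of H3K27me2 to input that the authors' caller gave, and every listed fold was above 5 and every listed length at least 999 bp.

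Peaks were taken as listed. Gene identifiers were matched to RefSeq symbols (11459 of 11472), and all 58 transcripts named by member peaks had the same limits in GENCODE vM21. Overlap meant at least 1 bp. Intervals of medians are exact binomial ones from the ordered values. Positions within 3 kb of a start are the annotation's promoter classes. The steps ran in Python 3.11.15 (pandas 2.3.3, numpy 2.4.6, scipy 1.17.1), figures in matplotlib 3.10.9, and the overlap and interval functions were tested on simulated data. Upper and lower folds were divided at the emptiest bin of log2 fold between the modes of each list.

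The members, the side lists and the alternatives were chosen with earlier results of these data known. Named were every Hox gene with a peak and, in other families, genes with peaks in at least 3 lists or within 1 kb of a start, with the 3 largest folds or the longest peak of a list, or among the 3 genes with most peaks of a list. Genes outside this rule (Gata6, Lhx2, Pax2, Pax5, Tbx19, Nkx6-1, Meis1 and Otx2) were named after their values were seen. 1 gene that the rule left out is not reported here, and 2 others are counted in the totals and not reported by name. The coverage table was not used.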

Additional observations from a re-analysis of the deposited data

How the results depend on the processing

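No paired analysis was possible because each group has 1 library, and no library could be left out. Of 84 recomputed values, 64 stayed within 1.5 times the reported count or within the interval of the reported share or median, and 20 moved. Member peaks with a fold over 10 were 13 in the Ezh2m+/p+ maternal and 46 in the Ezh2m-/p+ paternal list, and those over 2000 bp were 27 in the Ezh2m-/p+ maternal, 34 in the Ezh2m+/p+ paternal and 28 in the Ezh2m-/p+ paternal list. Within 100 kb of the start lay 47 Ezh2m-/p+ paternal members. Counting peaks that touch a gene body or its 5 kb flanks in place of assigned peaks gave 5 and 20 maternal and 27 and 30 paternal peaks in Ezh2m+/p+ and Ezh2m-/p+ zygotes, and 5 maternal and 6 paternal genes in Ezh2m+/p+ zygotes. With 1 value per gene, the largest, the median paternal fold was 60.2 for Ezh2m+/p+ and 78.8 for Ezh2m-/p+ zygotes. The overlap of Ezh2m+/p+ with Ezh2m-/p+ members under a reciprocal overlap of 50% was 4.17% in the maternal and 23.3% in the paternal genome. For the paternal genome it was 43.1% with a fold over 10 in both lists and 43.8% as a share of the Ezh2m-/p+ list. Leaving out Pax7 and Lhx4, an alternative chosen after the data were seen, left 31 Ezh2m+/p+ paternal peaks and an overlap of 54.8%. The median Ezh2m+/p+ maternal fold was 7.08 among members over 2000 bp, against 29.5 over all of them, a move within its interval. Depth is stated by the study for whole libraries and not for the reads of each parental genome, so what it limits in each list is unknown.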
